A study of Homo sapiens with 6 samples.

Results

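Cancer-testis antigen genes are genes whose RNA is found in testis germ cells and in tumours, and in few other adult tissues. The members described here are all genes of the deposited expression table whose symbol starts with MAGEA, MAGEB, MAGEC, SSX, SPANX, CSAG, GAGE, PAGE or XAGE. This rule found 40 of the 17064 genes in the table. One of them, SSX2IP, lies on chromosome 1 and shares only the start of its name with the SSX genes, so that 39 members of these families remain, all of them on the X chromosome. Near-identical copies were summed, because reads of 50 bases can often not be assigned to 1 copy. The 18 members of 8 copy groups were joined in this way, and the 40 genes became 30 features.

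The cells were MDA-MB-231, a mesenchymal-like line from a human breast cancer of the triple-negative type, and their RNA was sequenced in 6 libraries to ask how gene expression changes when the kinases MRCKα and MRCKβ are deleted. Both kinases act downstream of CDC42 on the actomyosin cytoskeleton. The controls were 2 libraries of cells transduced independently with empty lentiCRISPRv2. The knockouts were 1 library of cells with CDC42BPA (MRCKα) knocked out, 1 with CDC42BPB (MRCKβ) knocked out, and 2 of double knockout (DKO) cells lacking both, made with different guides. The virus was made in HEK293T cells, and the transduced cells were selected with puromycin or blasticidin and used as populations without clone picking. Which guide belongs to which DKO library is not given in the sources used here.

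The expected counts, which are estimated reads per gene, summed to between 10349898 and 10657857 per library. RNA of the targeted genes remained in every library, with an FPKM (fragments per kilobase of transcript, scaled to sequencing depth) between 23.3 and 36.4 for CDC42BPA and between 23.4 and 30.3 for CDC42BPB, so that the RNA level does not check the knockouts. VIM was at an FPKM of at least 1532 in every library, and of 5 markers listed as low, ESR1, PGR and CDH1 stayed below 1, with at most 0.87, 0.03 and 0.64. The other two were EPCAM, between 0.73 and 2.62, and ERBB2, between 13.2 and 16.2. Of 9 germ cell markers, 2 had a row in the table. They were SYCP3, with 52 to 84 counts, and ACRV1, with 0 to 5. Of 5 markers of HEK293T cells, 3 had a row, while PAX2 and NEFL had none. LIN28A had 10.65 to 16.1 counts, and LIN28B had 10 in MRCKα KO, 1 in DKO 1 and 0 elsewhere. SOX2 had 0 and 5 in the vector libraries, 10 and 6 in the single knockouts and 16 and 31.6 in DKO. Of 5 fibroblast markers, COL1A2 had 49 counts in vector 1 and 2 to 8 elsewhere, and PDGFRB had 363 in vector 1 and 69 to 281 elsewhere. COL1A1 had 183 counts in vector 1 and 115 to 145 elsewhere. DCN had 0 to 6 counts, and LUM had 0 to 3 with the most in DKO 1. The part of other cells in the results was not tested.

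Most cancer-testis genes of the X chromosome belong to families of recent gene copies. In most adult cells their promoters are methylated and silent, and they can become active when DNA methylation is lost, as in germ cells and many tumours. MAGE proteins bind RING-type ubiquitin ligases such as TRIM28, SSX proteins are repressors of transcription, SPANX proteins are found in the sperm nucleus, and GAGE, PAGE and XAGE proteins are small and largely unstructured. Their peptides are presented on tumour cells, which is why several have been tried as targets of immunotherapy.

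The promoters of 6 members that differed between libraries, chosen as examples after their values were seen, are shown here, so that the upstream sequence of MAGE, SPANX and PAGE genes can be compared. Of the 40 members, 37 had an entry among the RefSeq promoters (GRCh38.p14). Each line holds 150 bases upstream of the first annotated exon, 5′ to 3′ on the strand of the gene, with every CpG, the dinucleotide that is methylated in silent promoters, in capitals. The positions are chrX:152698602-152698751 on the plus strand for MAGEA3, chrX:30215410-30215559 on the plus strand for MAGEB2, chrX:141903744-141903893 on the plus strand for MAGEC1, chrX:142205291-142205440 on the minus strand for MAGEC2, chrX:141002441-141002590 on the plus strand for SPANXB1 and chrX:55088858-55089007 on the plus strand for PAGE2.
MAGEA3: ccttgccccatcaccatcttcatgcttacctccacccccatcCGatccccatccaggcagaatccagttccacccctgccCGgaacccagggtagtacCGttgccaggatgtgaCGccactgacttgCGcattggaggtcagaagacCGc
MAGEB2: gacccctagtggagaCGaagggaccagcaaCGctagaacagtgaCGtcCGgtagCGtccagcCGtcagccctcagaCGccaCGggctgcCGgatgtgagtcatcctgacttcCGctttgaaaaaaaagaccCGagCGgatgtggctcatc
MAGEC1: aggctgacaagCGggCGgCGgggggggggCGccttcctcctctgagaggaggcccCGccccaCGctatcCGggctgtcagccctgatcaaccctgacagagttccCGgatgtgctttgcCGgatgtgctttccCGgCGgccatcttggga
MAGEC2: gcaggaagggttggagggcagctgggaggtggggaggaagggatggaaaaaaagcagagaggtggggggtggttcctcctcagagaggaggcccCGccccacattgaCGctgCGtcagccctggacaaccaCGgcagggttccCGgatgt
SPANXB1: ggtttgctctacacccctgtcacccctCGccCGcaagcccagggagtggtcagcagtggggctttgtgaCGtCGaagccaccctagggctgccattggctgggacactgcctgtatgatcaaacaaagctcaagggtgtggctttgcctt
PAGE2: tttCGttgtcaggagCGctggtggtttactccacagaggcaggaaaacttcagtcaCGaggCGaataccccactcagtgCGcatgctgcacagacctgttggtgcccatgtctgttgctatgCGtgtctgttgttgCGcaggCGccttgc

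Among these 6 stretches, MAGEB2 held the most CpGs with 12, followed by MAGEC1 with 11, PAGE2 with 8, MAGEA3 with 6, MAGEC2 with 5 and SPANXB1 with 4. Over the 250 bases before the first listed start of each gene, the 36 family members with an entry had a median of 9 CpGs. Their range was 1 to 18. The median of all 35116 promoter windows, with several for some genes, was 11. In the most alike 250-base windows of each pair, MAGEA3 and MAGEA6 were identical, as were SSX2 and SSX2B, and MAGEA2 and MAGEA2B. SPANXA1 and SPANXC were identical at 98.8% of positions. Some genes have several windows. The letters CCGGATGT, searched on both strands after the sequences had been read, were found in any window of 11 of the 36 members (30.6%) and of 0.707% of all 27305 genes with a window. The letters were chosen with sequences of these members known, so that nothing is read from the difference between the shares. Of the 14 MAGE genes with an entry, 9 had them, among them MAGEB2, MAGEC1 and MAGEC2, but not MAGEA3 or MAGEA6. Copies were counted singly here, also those with identical windows such as MAGEA2 and MAGEA2B, so that the 11 members are not independent. A second search, for CCGGAA, went the other way. These letters were in the first window of 3 of the 36 members and in 14.5% of all 35116 windows.

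Expression of the families was carried by few genes. Of the 30 features, 19 reached 10 counts in at least 1 library, and without SSX2IP these were 18. The other 11 had between 1.00 and 9.79 counts in their highest library and were at 0 in at least 1 library. All reads of the families together made up 0.0552% of vector 1, 0.137% of vector 2, 0.0625% of MRCKα KO, 0.0627% of MRCKβ KO, 0.0679% of DKO 1 and 0.0820% of DKO 2. Without the SPANX genes, the share was between 0.0384% and 0.0463% in every library, so that the higher share of vector 2 came with the SPANX reads.

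On the FPKM scale, which allows genes to be compared with each other, SPANX and XAGE1 stood far above the rest. The SPANX sum was between 383 and 2133 and XAGE1, a tumour antigen of the XAGE family, between 392 and 454. The next features by mean FPKM were CSAG1, SSX1, MAGEA12 and MAGEB2, with 28.2, 19.8, 16.9 and 13.5. The GAGE genes had at most 2 counts in any library, which is below the 3 counts that a count of 0 allows at this depth.

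**Figure D1:**
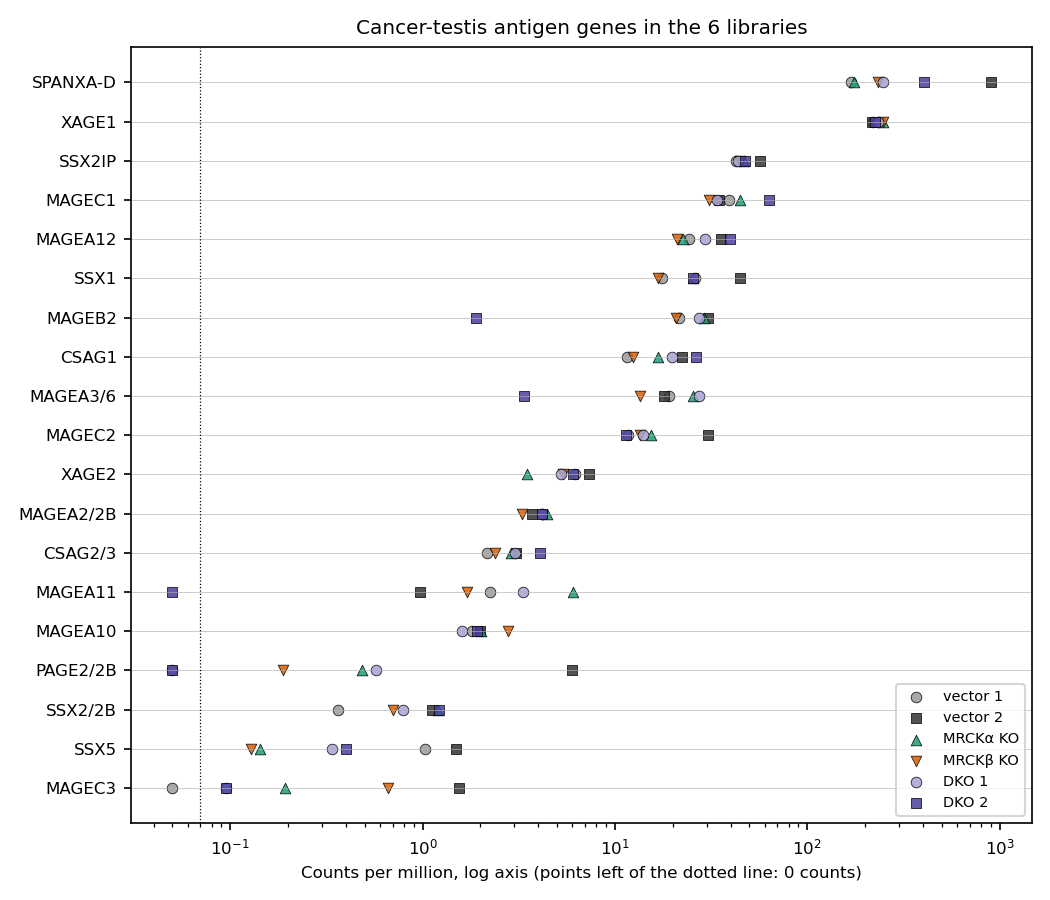
CPM, counts scaled to library size (log axis), of the 19 features with at least 10 counts in a library, one point per library, with points left of the dotted line at 0 counts. XAGE1 overlaps almost completely between libraries, whereas vector 2 is far to the right for SPANXA-D (sum of SPANXA1, SPANXB1, SPANXC and SPANXD) and PAGE2/2B, and DKO 2 is far to the left for MAGEB2, MAGEA3/6 and MAGEA11.

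Vector 2 differed from vector 1 for many of these genes. Of the 18 features with at least 10 counts in either vector library, 7 (38.9%) were at least 2-fold apart in CPM (counts scaled to library size), while of all 13359 features with such counts 8.52% were. Of the 7, 6 were higher in vector 2 (SPANXA-D, PAGE2/2B, SSX1, MAGEC2, SSX2/2B and MAGEC3) and MAGEA11 was lower. Of the vector libraries, PAGE2/2B, SSX2/2B and MAGEC3 reached 10 counts only in vector 2. They entered the count only through the library where they were high, so that nothing is read from their direction. In the table as a whole, 3.59% were at least 2-fold higher and 4.93% at least 2-fold lower in vector 2. With at least 30 counts in either library, 4 of 13 features were 2-fold apart, against 4.84% of all. PAGE2/2B passed this limit, too, only through vector 2. The 2 libraries have the same genotype, and each comparison of a knockout with vector rests on both.

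The SPANX genes lie on Xq27, where SPANXB1 is on the plus strand and SPANXA1, SPANXC and SPANXD are on the minus strand. In the order vector 1, vector 2, MRCKα KO, MRCKβ KO, DKO 1 and DKO 2, which is kept for all lists of values below, the SPANX sum had 1792, 9349, 1821, 2469, 2577 and 4256 expected counts. Vector 2 was 5.37 times vector 1 (exact 95% interval 5.11 to 5.65, which like all intervals here covers counting error only, as the reads carry no molecular identifiers) and exceeded all other libraries. The counts do not show whether more cells expressed these genes or each cell held more RNA, since these 2 possibilities cannot be told apart in bulk RNA.

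Within the SPANX group, the copies did not differ to the same extent. SPANXA1 had 13.4, 3274, 26.2, 25.7, 9.96 and 3.77 counts and was thus 253 times higher in vector 2 than in vector 1 (interval 151 to 488), while the other 5 libraries lay between 3.77 and 26.2. SPANXB1, the most abundant copy, had 1734, 5523, 1739, 2360, 2497 and 4142 counts, with vector 2 at 3.28 times vector 1 (interval 3.11 to 3.46). SPANXA1 took 35.0% of the SPANX counts in vector 2 and at most 1.44% in any other library.

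SPANXC had 33.6, 248, 53.0, 58.5, 45.1 and 70.0 counts, and SPANXD had 11.1, 304, 3.16, 25.1, 24.7 and 40.7. Both were highest in vector 2, by 7.60 times vector 1 for SPANXC (interval 5.23 to 11.1) and 28.1 times for SPANXD (interval 15.7 to 57.6). All 50-base stretches of the annotated SPANXA1 transcripts are shared with another gene, mostly SPANXA2, SPANXD and SPANXC, but only 21.7% of those of SPANXB1. The split between SPANXA1, SPANXC and SPANXD therefore rests on the authors' estimation and the sum is the firmer value, whereas the rise of SPANXB1 in vector 2 was also seen with mostly unique sequence.

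**Figure D2:**
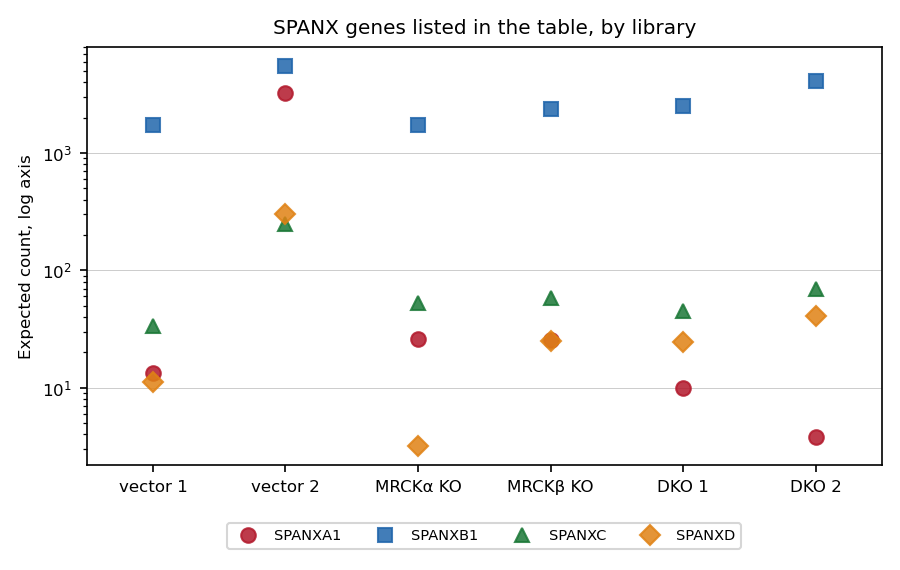
Expected counts (log axis) of the 4 SPANX genes in each library, one point per gene and library. All 4 genes are highest in vector 2, and SPANXA1 is at 3274 counts there but at 26.2 or fewer in the other libraries.

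The SSX and PAGE genes showed further differences between the vector libraries. SSX1, one of the SSX genes fused to SS18 in synovial sarcoma, had 188, 463, 264, 179, 272 and 269 counts, with vector 2 at 2.53 times vector 1 (interval 2.14 to 3.02). PAGE2 and PAGE2B together were at 0, 62, 5, 2, 6 and 0 counts. Vector 2 was therefore at least 21.3-fold higher than vector 1, taking the 3 counts that a count of 0 allows and the 62 counts as exact. The counting error of vector 2 is not part of this bound.

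SSX2 and SSX2B, which share their promoter sequence, had 3.85, 11.6, 12.5, 7.45, 8.25 and 12.9 counts together. SSX2 itself was listed with 11.5 counts in MRCKα KO, 0.08 in DKO 1 and 0 in the other 4 libraries, while SSX2B had only 1.05 in MRCKα KO and 3.85 to 12.9 elsewhere. All 50-base stretches of SSX2 are shared with other genes, so that this exchange between the copies has no support from unique sequence. The interval of the summed vector ratio, 0.936 to 13.1, includes 1.

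Of the MAGEC genes, MAGEC2, which binds the ligase TRIM28, had 125, 314, 159, 143, 147 and 120 counts. Vector 2 was 2.59 times vector 1 (interval 2.10 to 3.21), and the 5 other libraries lay within 120 to 159. MAGEC3 had 0, 16, 2, 7, 1 and 1 counts. With the 16 counts taken as exact, vector 2 was at least 5.49-fold higher than vector 1. MAGEC1, a tumour antigen found in many myelomas, had 418, 361, 462, 327, 357 and 663 counts. It was not 2-fold apart between the vector libraries but was highest in DKO 2, with 1.85 times the level of DKO 1 (interval 1.62 to 2.11).

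**Figure D3:**
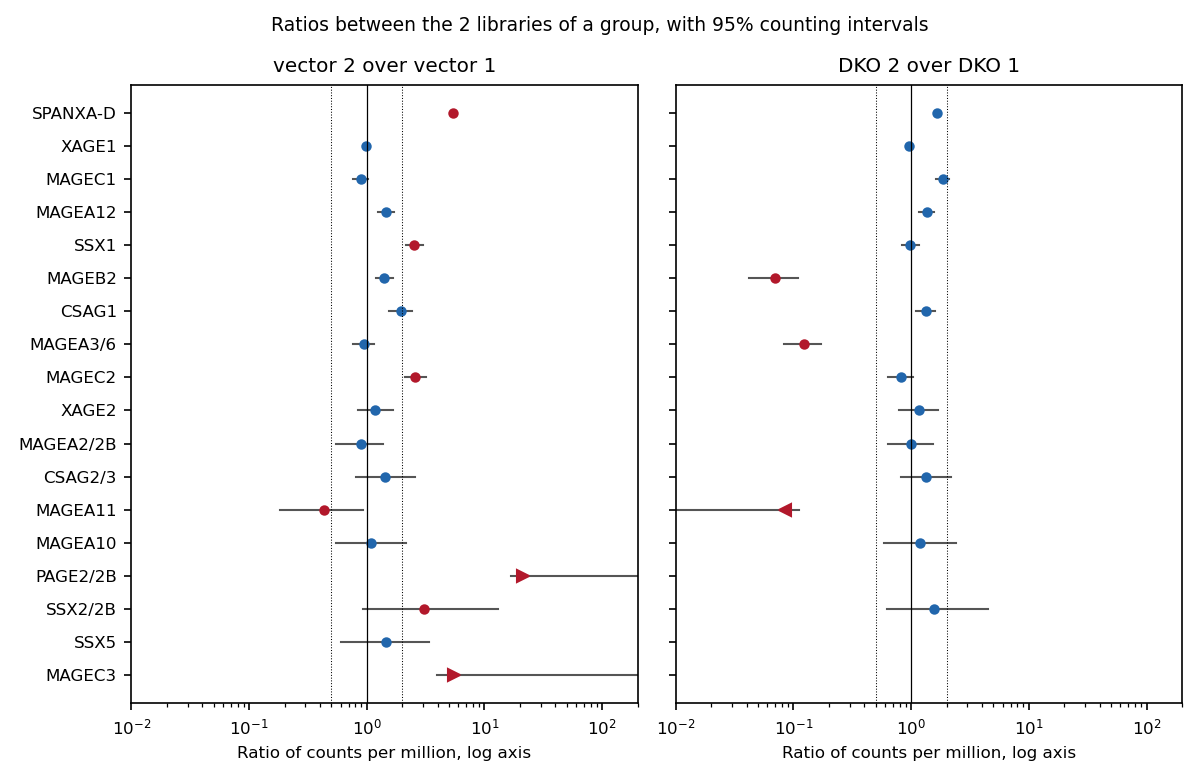
Ratio of CPM (log axis) of vector 2 over vector 1 (left) and DKO 2 over DKO 1 (right) with exact 95% intervals for counting error, for features with at least 10 counts in either library. Red marks a ratio of at least 2 or at most 0.5 (dotted lines), and triangles are bounds where 1 library was at 0. On the left, 6 features are at least 2-fold higher and 1 is lower, and on the right 3 are at least 2-fold lower and none is higher.

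Between the DKO libraries, some MAGE genes stood apart and others did not. Of 15 features with at least 10 counts, 3 were 2-fold apart, against 5.44% of all 13327 features. All 3 (MAGEB2, MAGEA3/6 and MAGEA11, which was also apart between the vector libraries) were lower in DKO 2, which over all features was the case for 3.23%, while 2.21% were at least 2-fold higher. MAGEA11 reached 10 counts only in DKO 1, where it was high, so that nothing is read from its direction. With at least 30 counts in either library, the same 3 of 13 were apart, against 2.70% of all. At that limit MAGEB2 and MAGEA11 passed only through DKO 1.

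MAGEB2 lies on Xp21 (chrX:30215560-30220089, GENCODE v29 on GRCh38) and shares none of its 50-base stretches with another gene. It had 229, 314, 301, 222, 287 and 20 counts, and DKO 2 was below each of the other 5 libraries, which lay between 222 and 314. It was 14.4-fold lower than DKO 1 (interval 9.16 to 24.0), 11.3-fold lower than vector 1 (interval 7.14 to 18.8) and 15.9-fold lower than vector 2 (interval 10.1 to 26.5).

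MAGEA3 and MAGEA6, whose proteins direct TRIM28 to AMPK, had 204, 187, 264, 144, 287 and 35.4 counts together. DKO 2 was again the lowest library, 8.13-fold below DKO 1 (interval 5.79 to 12.1) and 5.36-fold below vector 2 (interval 3.77 to 8.02). Both copies were low there, with 11.1 counts of MAGEA3 and 24.3 of MAGEA6, against 70.4 and 216 in DKO 1.

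MAGEA11, a coregulator of the androgen receptor, had 24, 10, 63, 18, 35 and 0 counts. In DKO 2 it was at least 11.7-fold lower than in DKO 1, with the 35 counts of DKO 1 taken as exact. In MRCKα KO it was the only one of the 18 features at least 2-fold above both vector libraries, at 2.70 times vector 1 (interval 1.66 to 4.52) and 6.29 times vector 2 (interval 3.20 to 13.7). The gene lies on Xq28 at chrX:149688228-149717266 and shares 0.197% of its 50-base stretches.

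The other MAGEA and CSAG genes of Xq28 did not share the low level of DKO 2. A block of 71.0 kb (chrX:152698752-152769747) holds, in this order, MAGEA3, CSAG2, MAGEA2B, CSAG1, MAGEA12, MAGEA2, CSAG3 and MAGEA6, so that MAGEA3 and MAGEA6 form its ends. MAGEA12, inside the block, had 259, 367, 233, 224, 308 and 418 counts, and MAGEA2 with MAGEA2B had 44.6, 38.3, 46.0, 34.9, 43.8 and 44.1. MAGEA12 was highest in DKO 2, and MAGEA2/2B had a ratio of 1.00 between DKO 2 and DKO 1 (interval 0.640 to 1.55). MAGEA10, outside the block, had 19.3, 20.5, 21.0, 29.4, 16.7 and 20.1 counts, a ratio of 1.20 between the DKO libraries (interval 0.583 to 2.38).

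CSAG1 starts on the minus strand at position 152733735, next to the start of MAGEA12 on the plus strand at 152733779. It had 123, 232, 174, 133, 207 and 277 counts and was likewise highest in DKO 2. CSAG2, which was described in taxol-resistant cells, and CSAG3 had 23.0, 31.8, 29.8, 25.2, 31.8 and 42.9 counts together. CSAG2 alone was listed with 22.3 counts in MRCKα KO, 15.2 in DKO 1 and 0 in the other 4 libraries, but 97.7% of its 50-base stretches are shared, mostly with CSAG3, and the sum differed by less than 2-fold between any 2 libraries.

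**Figure D4:**
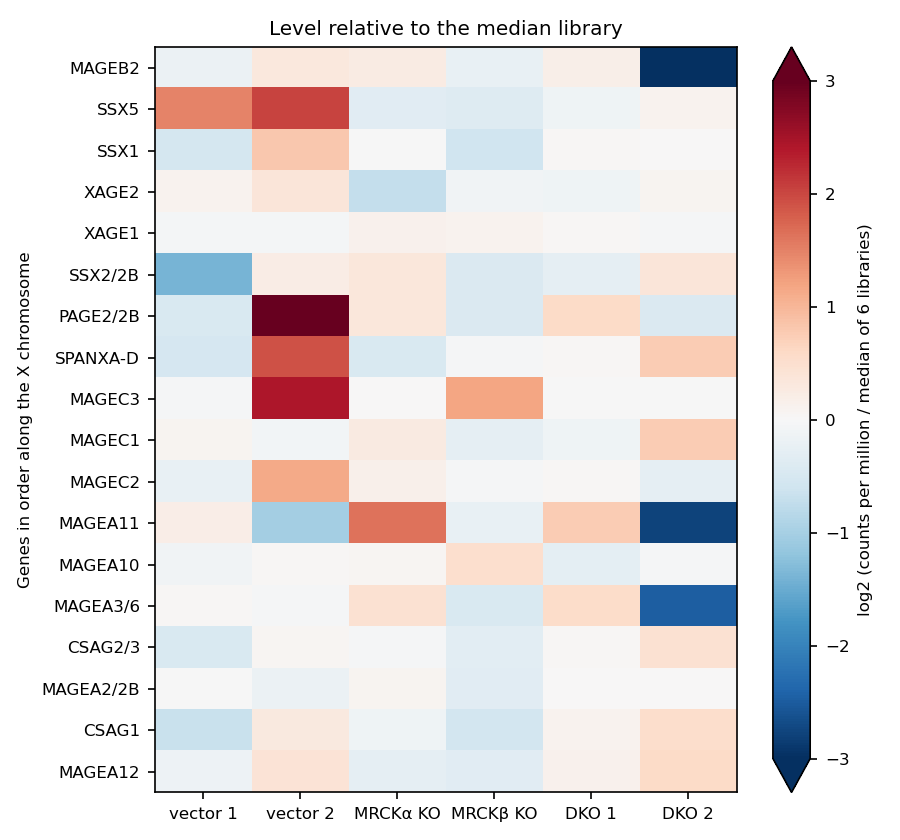
Log2 of CPM relative to the median of the 6 libraries, for the 18 features in order along the X chromosome (by the first member of a copy group), with counts below 3 set to 3. The colour scale ends at 3 in both directions, and the value of MAGEB2 in DKO 2, -3.68, and that of PAGE2/2B in vector 2, 3.96, lie beyond it. Dark blue in the DKO 2 column marks MAGEB2, MAGEA11 and MAGEA3/6, while the red cells of the vector 2 column are spread over the SSX, PAGE, SPANX and MAGEC genes.

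XAGE1 was the steadiest of the abundant members. It had 2341, 2257, 2583, 2626, 2441 and 2352 counts, split evenly by the authors between XAGE1B and XAGE1E, which cannot be told apart over all 50-base stretches of XAGE1B. In CPM, all 4 knockout libraries were above both vector libraries, but MRCKβ KO was only 1.12 times vector 1 (interval 1.06 to 1.19). DKO 2 was 1.02 times vector 1 (interval 0.962 to 1.08). In FPKM, DKO 1 and DKO 2 were at 416 and 408, below vector 1 at 419. XAGE2, known from placenta, had 66, 76, 36, 57, 55 and 64 counts, with all 4 knockout libraries below both vector libraries and MRCKα KO lowest, at 1.78-fold below vector 1 (interval 1.17 to 2.76).

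DKO against vector is the only comparison with replicates on both sides (n = 2 each). By the quasi-likelihood test of edgeR, with p-values adjusted after Benjamini and Hochberg over all 13118 features tested, 0% of all features and none of the 16 features of the families that passed the filter on low counts had an adjusted p under 0.05. Without adjustment, 1 of the 16 had a p under 0.05, against 2.38% of all features. Of the 16, 8 had a log2 fold change above 0 and 8 below, with a median of -0.03, while the median over all features was -0.0024. Their standard error had a median of 0.42, against 0.18 over all features. The p-values measure the spread between these libraries alone.

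Leaving out each of the 4 libraries in turn changed the sign of the log2 fold change for 11 of the 16 features, while it did so for 58.3% of 13110 features fitted each time. Some of these changes were around 0, as for MAGEA10 and MAGEA2/2B, and others were wide. For SPANXA-D it was -0.74 (SE 0.69), -1.50 without vector 1 and 0.93 without vector 2. For SSX1 it was -0.29 (SE 0.40) and 0.53 without vector 2, and for MAGEC2 it was -0.74 (SE 0.43) and 0.10 without vector 2.

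For MAGEB2 the log2 fold change was -0.84 (SE 0.91), -3.79 without DKO 1 and 0.06 without DKO 2. Without DKO 1, the only DKO library left is DKO 2, where MAGEB2 was low. This lone library is assumed to vary like the vector libraries, so that only the effect size is given from this fit. MAGEA3/6 had -0.29 (SE 0.78), and 0.54 without DKO 2. Fitted as a single gene, SPANXA1 had a log2 fold change of -7.89 (SE 2.42, adjusted p = 1.00 in edgeR's test), but this value came from vector 2, since vector 1 with 13.4 counts was near DKO 1 with 9.96 and DKO 2 with 3.77.

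The 5 features whose sign did not change when a library was left out were SSX5, XAGE2, XAGE1, CSAG1 and CSAG2/3. SSX5 ranged from -1.92 to -1.43 over these fits. CSAG1 had a log2 fold change of 0.42 (SE 0.33), with 0.017 without vector 1 and 0.98 without vector 2. CSAG2/3 had 0.42 (SE 0.41), with 0.18 and 0.71 in these fits. XAGE1 had the smallest error, with 0.04 (SE 0.11), and 0.0032 without DKO 1 and 0.074 without DKO 2. XAGE2 had -0.27 (SE 0.29), with -0.14 without vector 2 and -0.40 without vector 1. The values of MAGEC1, MAGEA12, MAGEA2/2B, MAGEA10, MAGEA11 and SSX2/2B were 0.37, 0.19, 0.07, -0.09, 0.04 and 0.36, each within 1.5 standard errors of 0. SSX2IP, which encodes a centrosomal partner of SSX2 and is expressed in many tissues, had 453, 585, 485, 477, 459 and 497 counts and a log2 fold change of -0.14 (SE 0.17).

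**Figure D5:**
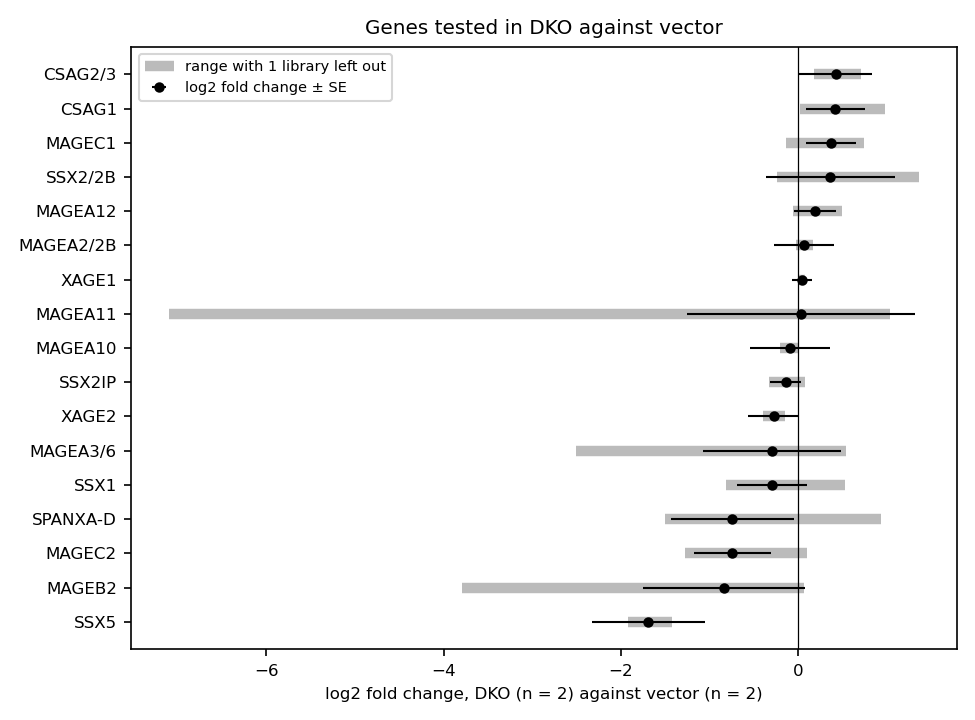
Log2 fold change of DKO (n = 2) against vector (n = 2) from edgeR, with the standard error as a black bar and the range over the 4 fits with 1 library left out in grey, for the 16 family features tested and SSX2IP. SSX5 is lowest at -1.69 and its grey bar stays below 0, while the grey bars of MAGEB2, MAGEA3/6, SPANXA-D and MAGEA11 reach across 0.

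SSX5, another SSX gene, had few reads. Its counts were 10.96, 15.4, 1.48, 1.37, 3.53 and 4.18, so that all 4 knockout libraries were below both vector libraries, at 4.18 counts or fewer against at least 10.96. In DKO the log2 fold change was -1.69 (SE 0.64, unadjusted p = 0.0358, adjusted p = 1.00 in edgeR's quasi-likelihood test). MRCKα KO was 7.20-fold below vector 1 with an interval of 1.56 to 461, and MRCKβ KO was 7.98-fold below it with an interval of 1.60 to 472. DKO 1 and DKO 2 were 3.05-fold and 2.59-fold below vector 1, with intervals of 0.800 to 11.6 and 0.804 to 11.7 that include 1. Against vector 2 they were 4.42-fold and 3.75-fold lower, with intervals of 1.21 to 15.7 and 1.21 to 15.8. These values rest on few reads, and 13.9% of the 50-base stretches of SSX5 are shared with other genes.

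Of the 18 features, 1 (SSX5) was at least 2-fold below both vector libraries in all 4 knockout libraries, and 0.0435% of 13797 features with at least 10 counts in a library were. SSX5 reached 10 counts only in the vector libraries, where it was high, so that nothing is read from this share. None was at least 2-fold above in all 4, against 0.312%. Without the 2-fold limit, 2 of the 18 features (SSX5 and XAGE2) were below both vector libraries in all 4 knockout libraries. In CPM, 1 (XAGE1) was above, but not in FPKM. Over all features in CPM, these shares were 4.91% and 6.93%. The 4 knockout libraries are compared with the same 2 vector libraries and are not independent in this count.

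The single knockouts have 1 library each, and no test was run on them. In MRCKα KO, 7 of the 18 features were above both vector libraries in CPM and 3 below both, against 32.9% and 27.2% of all features. In MRCKβ KO, 2 were above and 8 below, against 30.5% and 28.8%. In CPM, both DKO libraries were above both vector libraries for 2 (MAGEA2/2B and XAGE1) and below for 2 (SSX5 and XAGE2), against 17.3% and 12.2%. For MAGEA2/2B, 4.183 and 4.193 in DKO were nearly equal to 4.181 in vector 1. In FPKM, neither MAGEA2/2B nor XAGE1 was above vector 1 in DKO. At 2-fold, none was above and 1 (SSX5) was below in both DKO libraries, against 0.418% and 0.249%. In MRCKα KO, 1 of the 18 features was at least 2-fold above both vector libraries (MAGEA11) and 1 at least 2-fold below both (SSX5), against 1.21% and 1.40% of all features. In MRCKβ KO, none was above and 1 was below (SSX5), against 0.777% and 0.792%. The SPANX sum of MRCKα KO was 1.04 times vector 1 (interval 0.978 to 1.12) and 5.14-fold below vector 2 (interval 4.89 to 5.41). That of MRCKβ KO was 1.38 times vector 1 (interval 1.30 to 1.47) and 3.89-fold below vector 2 (interval 3.72 to 4.07). Which vector library was used thus decided whether SPANX expression was near to or far from that of the controls.

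Under the fold rule of the study's methods, genes more than 2-fold apart between replicates, or at 0 in only 1 of them, were left out and a log2 ratio of mean FPKM of at least 1 or at most -1 was counted. This rule left out 10 of the 29 family features because of the vector libraries, among them SPANXA-D, SSX1, MAGEC2, PAGE2/2B and MAGEA11, and in DKO a further 8 because of the DKO libraries, among them MAGEB2 and MAGEA3/6. In MRCKα KO, 2 of the remaining 12 features with a ratio were lower (SSX5 and MAGEB1) and none was higher, against 2.47% lower and 1.94% higher of all genes with a ratio. In MRCKβ KO, 2 of 13 were lower (SSX5 and SSX7) and none was higher, against 1.84% and 1.68%. In DKO, 1 of 9 was lower (SSX5) and none was higher, against 0.759% and 1.02%. MAGEB1 and SSX7 had fewer than 10 counts in every library, and SSX5 reached 10 counts only in the vector libraries.

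Other groups of genes were described for comparison by their values in DKO. Among other cancer-testis and germ cell genes, 30 of the 50 listed names had a row and 11 were tested. None had an adjusted p under 0.05, 3 had a log2 fold change above 0 and 8 below, and their median was -0.05. DDX53, an X-linked RNA helicase gene of testis, was highest with 1.34 (SE 0.47, unadjusted p = 0.0280 and adjusted p = 1.00 in edgeR's test) and had 12, 12, 15, 9, 25 and 37 counts. MAEL, which acts on piRNAs in germ cells, was lowest with -0.60 (SE 0.41). PRAME had 4 counts in MRCKα KO and 0 elsewhere, and CTCFL, the testis paralogue of CTCF, had 2.94 to 8.95 counts and was not tested.

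The broadly expressed MAGE genes, which are not restricted to testis, had a median of 0.13 over 8 tested. MAGEH1 was highest with 1.05 (SE 0.62), and with 48, 28, 54, 55, 35 and 125 counts this rested on DKO 2. MAGED1 was lowest with -0.02 (SE 0.14). MAGED4 and MAGED4B were tested singly and not summed. MAGED4 had 0 counts in MRCKα KO and DKO 1, where MAGED4B had its most, 150 and 158.

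The 27 genes of DNA methylation and silencing were all tested, with a median of -0.01, 12 above 0 and 15 below, and none had an unadjusted p under 0.05. DNMT1, the maintenance DNA methyltransferase, was highest with 0.31 (SE 0.14), and DKO 2 had the most counts of the 6 libraries, with 5642, 4684, 5444, 5139, 6035 and 6919. The demethylase gene TET1 was lowest with -0.24 (SE 0.43). DNMT3B, a de novo methyltransferase, had -0.02 (SE 0.20), UHRF1, which recruits DNMT1, -0.14 (SE 0.16), SETDB1, a histone methyltransferase, -0.24 (SE 0.17), and the MAGE partner TRIM28 0.03 (SE 0.14). DNMT1 of vector 2 was 1.17-fold below vector 1 (interval 1.13 to 1.22). UHRF1 went the other way, with 1835 counts in vector 2 and 1446 in vector 1. Vector ratios of the other genes of this list are not given here. The part of these genes in the differences between libraries was not tested.

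Among 10 genes for partners of MAGE proteins, the median was 0.07, and PRKAA2, an AMPK subunit, was lowest with -0.29 (SE 0.14). Of 10 tested neighbours of the MAGEA and CSAG genes on Xq28, 1 was above 0 and 9 below, with a median of -0.06. GABRE was highest with 0.01 (SE 0.70). GABRA3, a GABA receptor subunit gene, was lowest with -0.45 (SE 0.72) and had 39, 41, 44, 42, 50 and 9 counts. As for MAGEB2 and MAGEA3/6, its low value came from DKO 2, which was 5.58-fold below DKO 1 (interval 2.72 to 12.9).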

How the data were processed

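The authors had RNA of the 6 samples sequenced as single reads of 50 bases by BGI and deposited expected counts and FPKM per gene. The submitters' processing notes name HISAT, Bowtie2, RSEM and GRCh38.p11, without versions. Expected counts are RSEM's estimates of reads per gene, in which reads shared by several genes are divided between them, and FPKM values were deposited with 2 decimals. No per-sample column was left unused.

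Members and gene lists were chosen with earlier results of these data known. Near-identical copies among the members were summed, and summed expected counts were rounded to whole numbers for the tests. DKO (n = 2) was compared with vector (n = 2) by edgeR 4.0.16 in R 4.3.3 (filterByExpr, TMM, quasi-likelihood test, Benjamini-Hochberg adjustment, threshold 0.05), after the scripts had been tested on simulated data. DESeq2 1.42.0 and limma 3.58.1 (log2 of FPKM plus 0.1 or 1) were alternatives. Libraries were compared in pairs by CPM (counts scaled to library size) with exact binomial intervals (95%), and were called apart at 2-fold among features with at least 10 counts in either library. Where a library was at 0, 3 counts gave the bound, with the count of the other library taken as exact. Single knockouts have 1 library each and were not tested. Members with at least 10 counts in a library were named with all 6 values. From the lists, preset genes and the highest and lowest fold change were named, and other genes were named after their values were seen. Shared sequence was counted as 50-base stretches of GENCODE 29 transcripts. Promoter sequences came from a RefSeq table (GRCh38.p14).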

Additional observations from a re-analysis of the deposited data

Results flagged for a closer look

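For 3 of the 18 features, all libraries of 1 knockout group lay above both vector libraries and all those of another below both. Over all 13797 features this was the case for 16.5%, so that the members did so about as often as other genes. In each case a single knockout is 1 library, and the difference was not tested. MAGEA3/6 was above both vector libraries in MRCKα KO and below both in MRCKβ KO, with a log2 ratio of CPM (counts scaled to library size) between the single knockouts of 0.91, or 1.88-fold (exact interval 1.53 to 2.32). MAGEC1 was likewise above in MRCKα KO and below in MRCKβ KO, with a log2 ratio of 0.53 (1.45-fold, interval 1.25 to 1.67). MAGEA2/2B had the same pattern with a log2 ratio of 0.44 (1.35-fold, interval 0.850 to 2.16, which includes 1). In CPM it was also below both vector libraries in MRCKβ KO and above both in DKO, with a log2 ratio of -0.35. Its CPM in DKO, 4.183 and 4.193, was nearly equal to 4.181 in vector 1. In FPKM, MRCKα KO, DKO 1 and DKO 2 were all below vector 1, with 2.47, 2.42 and 2.22 against 2.53.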

How the results depend on the processing

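No family feature passed the test in DKO under the alternatives that left out no library. Over all features, DESeq2 called 4, the fit with a replicate block 5 and the others of these alternatives 0. Fits that left out 1 library have a lone library in 1 group, and only their effect sizes are given. The deviations of same-numbered libraries correlated at 0.31 over features, but with 2 pairs and no shared batch in the labels the numbers were not taken to pair the samples.

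The replicate block turned MAGEA11 to -0.50 on the log2 scale, and limma with 0.1 or 1 added turned it to -0.91 or -0.079. The cause was not tested. Leaving out 1 library gave log2 fold changes of -0.21 to 0.0059 for MAGEA10, -7.10 to 1.03 for MAGEA11, -0.059 to 0.49 for MAGEA12, -0.026 to 0.17 for MAGEA2/2B, -2.51 to 0.54 for MAGEA3/6, -3.79 to 0.063 for MAGEB2, -0.14 to 0.74 for MAGEC1, -1.27 to 0.10 for MAGEC2, -1.50 to 0.93 for SPANXA-D, -0.82 to 0.53 for SSX1, -0.23 to 1.37 for SSX2/2B and -0.33 to 0.083 for SSX2IP.

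Without summing copies, 12 of 24 members differed 2-fold in the vector pair (8.55% of all) and 6 of 20 in the DKO pair (5.46%). With at least 30 counts, 4 features did so in the vector pair (4.84% of all). Under the fold rule, 0 features passed in MRCKα KO, MRCKβ KO or DKO with a pseudocount of 1 or a mean FPKM of at least 1. Of all features, 0.32%, 0.0817% and 0.0806% passed with this pseudocount and 1.43%, 0.828% and 0.43% with this mean FPKM. With at least 10 counts 1 passed in MRCKα KO and 1 in MRCKβ KO (2.96% and 2.03% of all). A pseudocount of 0.1 and unsummed copies gave 2 to 3 in the single knockouts (2.79% to 4.42% of all). Without the replicate filter 7, 5 and 6 passed (9.45%, 8.36% and 8.09% of all features), and leaving out 1 library gave 3 to 8, 3 to 9 and 2 to 5 (3.85% to 11.1% of all).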
